A study of Mus musculus with 12 samples.

Results

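The tumor suppressor p53, encoded by Trp53 in the mouse, is a transcription factor that binds short response elements in its target genes and raises their expression after DNA damage and other stress. Its targets include the ubiquitin ligase gene Mdm2, whose product marks p53 for degradation and so closes a feedback loop, together with genes of cell-cycle arrest, apoptosis, stress metabolism and DNA repair. In myoblasts p53 activity is known to affect both cell-cycle exit and myogenic differentiation. Several targets also respond to other factors, and Sesn2 and Gdf15 are known targets of the stress factor ATF4 as well.

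The genes described here are 32 genes of the p53 pathway, chosen by name from the 54532 genes of the expression table. All 32 were found and all 32 passed the filter on low counts that left 15122 genes for testing. By role they are 5 genes of p53 and its feedback, 12 of apoptosis, 6 of arrest and growth control, 4 of stress and metabolism and 5 of DNA repair. The values come from poly(A) RNA sequencing of C2C12, a cell line of mouse myoblasts that form myotubes when serum is withdrawn.

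Cells were taken 48 h after transfection with 30 nM siRNA. There were 4 groups. siCONTROL cells received a control siRNA, siKEAP1 cells one that targets Keap1, siCCNF cells one that targets Ccnf, and siKEAP1/siCCNF cells were given both, with 3 biological replicates and 1 library for each. KEAP1 is the CUL3 substrate adaptor that marks the antioxidant factor NRF2 for degradation, and CCNF (cyclin F) is a substrate receptor of the SCF ubiquitin ligase. Whether NRF2 took part in the changes of the p53 targets described here was not tested. The cells were grown with 5% serum per the labels, whereas the authors' methods name a higher share of serum for growth. It is not given in the sources used here which of the listed Ccnf siRNAs was sequenced, nor whether the dose is that of each siRNA in the double depletion. The comparisons ask how either depletion, and both together, changed the expression of the p53 targets.

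Both siRNAs lowered their target mRNA. Keap1 stood at 90.0, 89.0 and 84.3 CPM (reads of a gene relative to the library size after TMM scaling) in siCONTROL cells, 12.3, 12.8 and 12.7 CPM after siKEAP1, 86.5, 88.6 and 80.3 CPM after siCCNF, and 22.2, 27.0 and 23.1 CPM after siKEAP1/siCCNF. Cells depleted of both factors thus kept 27.5% of the control level of Keap1, against 14.4% after siKEAP1 alone, a difference beyond the spread between replicates (log2 fold change 0.93, edgeR adjusted p = 1.06e-06). Ccnf stood at 85.5, 80.1 and 77.7 CPM in siCONTROL cells, 56.8, 64.9 and 56.4 CPM after siKEAP1, 19.7, 20.5 and 21.3 CPM after siCCNF, and 23.7, 24.1 and 25.6 CPM after siKEAP1/siCCNF. It was also lower after siKEAP1 (log2 fold change -0.45, edgeR adjusted p = 0.000258).

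Total counts per library were 18464209 to 22231732 for siCONTROL, 21346088 to 24601929 for siKEAP1, 26039296 to 37743198 for siCCNF and 22825576 to 32216830 for siKEAP1/siCCNF. Deviations from the group mean ran against gene length in siCONTROL replicate 1 (Pearson r = -0.305 over 15122 genes, no independent replicates) and siKEAP1/siCCNF replicate 3 (r = -0.276), and the counts over the 32 genes at an adjusted p under 0.05 are also given without these libraries. All 8 myoblast markers were tested, and their summed level was 1809 to 1997 CPM in siCONTROL libraries, 1182 to 1206 after siKEAP1, 980 to 995 after siCCNF and 908 to 918 after siKEAP1/siCCNF. After siKEAP1 7 of the 8 were lower and 1, Met, was higher (log2 fold change 0.48, edgeR adjusted p = 0.0123). The sum of 8 myotube markers, 7 of them tested, was 54.3 to 127 CPM in siCONTROL libraries, 3.03 to 3.40 after siKEAP1, 15.3 to 22.1 after siCCNF and 6.01 to 6.98 after siKEAP1/siCCNF. Of 6 macrophage and 5 endothelial markers 2 each were tested, and the macrophage marker Tyrobp was at 0 in every library. The macrophage sum was 1.25 to 2.17 CPM in siCONTROL libraries, 5.90 to 11.1 after siKEAP1, 2.05 to 3.46 after siCCNF and 2.46 to 4.09 after siKEAP1/siCCNF, and the endothelial sum was 0.538 to 0.722, 1.45 to 2.04, 0.0268 to 0.739 and 0.264 to 0.397 CPM in the same order. Of these markers Cd68 was higher after siKEAP1, siCCNF and both (log2 fold changes 2.90, 1.25 and 1.55, edgeR adjusted p = 2.34e-05, 0.0132 and 0.00389), Tek was higher after siKEAP1 (2.59, edgeR adjusted p = 0.0106), and Cdh5 was lower after siKEAP1/siCCNF (-2.82, edgeR adjusted p = 0.032). Csf1r, the other macrophage marker tested, did not pass in any depletion (-0.48, -0.10 and -0.23). The macrophage sum was mostly Cd68, at a mean of 0.997 CPM in siCONTROL cells and 7.34 CPM after siKEAP1. Many of the markers moved with the groups and their part in the results below was not tested, and in bulk RNA fewer cells of a type and less RNA per cell cannot be told apart.

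In siCONTROL cells the targets spanned a wide range of levels. On the authors' FPKM scale, which corrects for gene length, the highest means were those of Phlda3 (144 ± 24.6, SD, n = 3), Ccng1 (78.7 ± 2.75), Bax (58.7 ± 11.5) and Trp53 itself (36.7 ± 1.42). Phlda3 encodes an inhibitor of AKT signaling and Ccng1 the p53-induced cyclin G1. The lowest were those of Pmaip1 (1.35 ± 0.189), Ddb2 (1.29 ± 0.0939) and Perp (0.661 ± 0.129), and those of Pmaip1 and Ddb2 differed by less than their SD. Perp had 24 counts in its lowest siCONTROL library, so that its fold changes are among the least precise.

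Depletion of KEAP1 raised most p53 targets. Against siCONTROL, 21 of the 32 genes were higher and 2 were lower at an adjusted p under 0.05 (edgeR's quasi-likelihood test, Benjamini-Hochberg adjustment over all 15122 genes), where 20.4% of all genes tested were higher and 20.2% lower. The median log2 fold change of the 32 genes was 0.52, and that of all genes -0.012. Differences over 2-fold were found for 8 of the 32 genes, all higher, where 7.59% of all genes were higher and 3.88% lower by this rule. At an unadjusted p under 0.05 the same 21 genes were higher and the same 2 lower. Those over 2-fold were Mdm2, Pmaip1, Eda2r, Perp, Trp53inp1, Gdf15, Sesn2 and Abhd4. Without siCONTROL replicate 1 and siKEAP1/siCCNF replicate 3, 24 were higher and 2 lower.

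Depletion of CCNF split the targets. Of the 32 genes 17 were higher and 8 lower than in siCONTROL cells, where 22.5% of all genes tested were higher and 25.5% lower. The share of higher genes among the targets thus lay above that of all genes, and the share of lower genes was close to it. Their median log2 fold change was 0.27, with 0.013 for all genes. Over 2-fold, Zmat3, Plk2 and Sesn2 were higher and Rrm2b was lower, where 4.61% of all genes were higher and 6.76% lower. Without the 2 libraries named above, 18 were higher and 10 lower.

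In cells depleted of both factors, 18 of the 32 genes were higher and 4 lower than in siCONTROL cells, where 20.6% of all genes were higher and 23.6% lower. The median log2 fold change was 0.28, with 0.014 for all genes. Fas, Perp and Sesn2 were higher over 2-fold and Rrm2b was lower, where 4.73% of all genes were higher and 5.54% lower. Without the 2 libraries, 20 were higher and 5 lower. All 3 comparisons use the same siCONTROL libraries and are therefore given side by side, without a measure of their likeness.

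**Figure D1:**
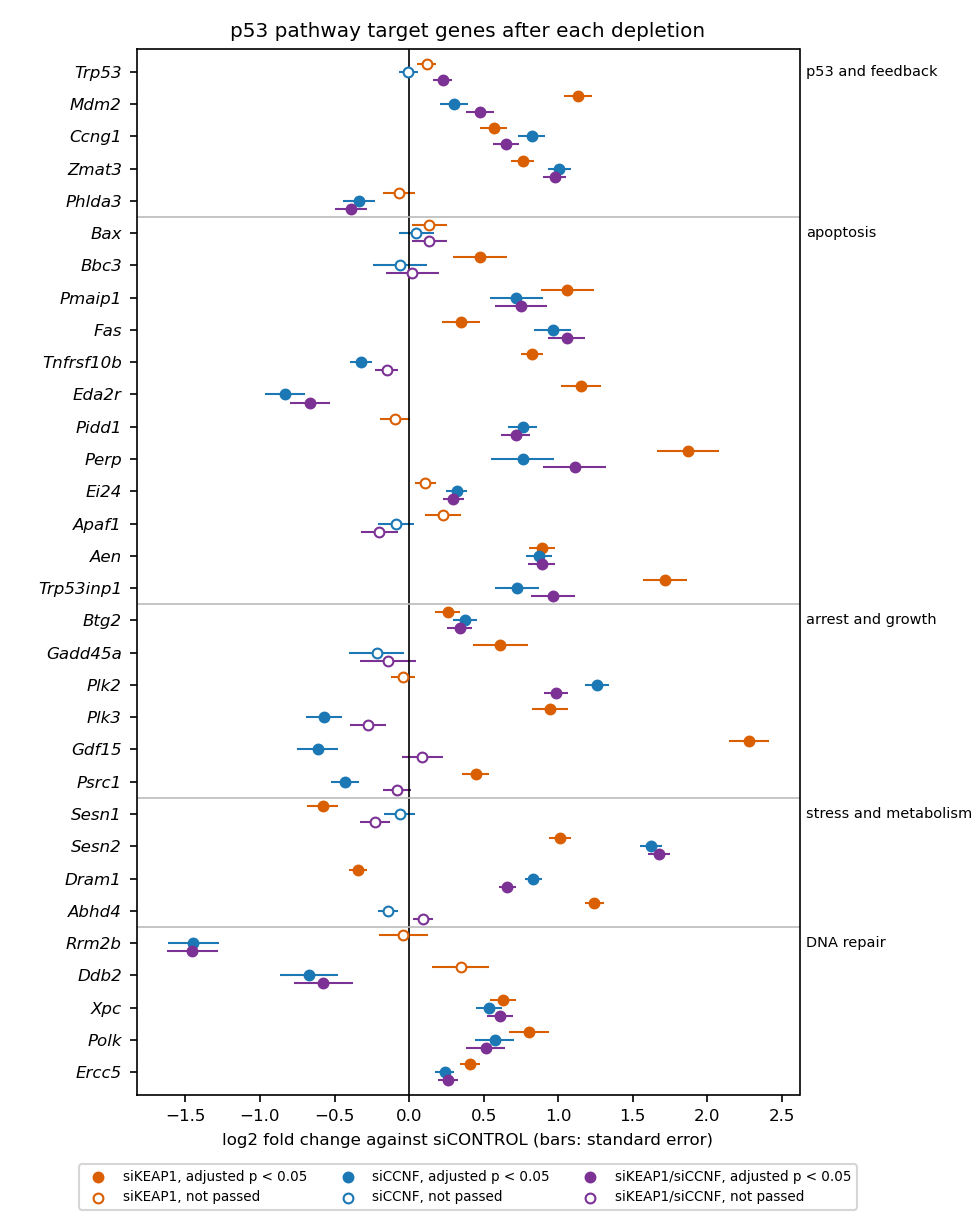
Log2 fold change against siCONTROL (x axis, bars are standard errors) of the 32 genes (y axis, ordered by role) after siKEAP1 (orange), siCCNF (blue) and siKEAP1/siCCNF (purple), filled where the adjusted p from edgeR was under 0.05. After siKEAP1 21 genes are filled on the right and 2 on the left, and Gdf15 reaches the highest value at 2.28, whereas Rrm2b lies furthest left after siCCNF and after both siRNAs, at -1.45 each.

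Because p53 acts through a response element, the promoters of the targets were searched for its decamer, the 10-base unit of which a full element holds a pair. RefSeq promoters on GRCm38.p6, from 250 bases before to 50 bases after an annotated start, were given for 24 of the 32 genes, and those of Zmat3, Pmaip1, Tnfrsf10b, Perp, Trp53inp1, Rrm2b, Ddb2 and Xpc were not in the table. A decamer on either strand, which the palindromic motif does not tell apart, was present in 10 of the 24 (41.7%), and in 2582 of 27025 genes with a promoter in the table (9.55%). The match describes letters and is no measure of binding. No decamer was found for Gdf15, Eda2r, Sesn2 and Plk2, among others. The matches in Bax, Ei24 and Sesn1, which did not meet the rule for values in every library, are not printed. The 7 other matches, in genes whose values in every library follow, are printed here, each within 30 bases on the gene's strand, with the decamer in capitals. The first capital lies at -75, -186, -185, 11, -40, 2 and -231 from the RefSeq start, in the order given, and the starts of Ccng1, Aen, Gadd45a, Abhd4 and Polk lie inside the gene of the expression table.
Trp53 chr11:69580274-69580303 plus strand: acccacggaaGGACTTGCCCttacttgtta
Mdm2 chr10:117710925-117710954 minus strand: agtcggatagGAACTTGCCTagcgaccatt
Ccng1 chr11:40755452-40755481 minus strand: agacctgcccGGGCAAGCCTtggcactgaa
Aen chr7:78895927-78895956 plus strand: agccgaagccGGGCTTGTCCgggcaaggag
Gadd45a chr6:67037428-67037457 minus strand: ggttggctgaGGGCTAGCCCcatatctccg
Abhd4 chr14:54259274-54259303 plus strand: cgacccggcaGGGCTTGTTTactatggctg
Polk chr13:96519399-96519428 minus strand: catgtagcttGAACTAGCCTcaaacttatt

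Trp53 mRNA itself changed little. Trp53 (ENSMUSG00000059552, chromosome 11 of GRCm38 from 69580359 to 69591873) stood at 156, 148 and 145 CPM in siCONTROL cells, 159, 166 and 162 CPM after siKEAP1, 142, 154 and 152 CPM after siCCNF, and 164, 172 and 189 CPM after siKEAP1/siCCNF. The siCCNF libraries overlapped with siCONTROL, whereas the siKEAP1 and siKEAP1/siCCNF libraries lay just above it. The log2 fold change was 0.12 after siKEAP1 (standard error, SE, 0.065, edgeR adjusted p = 0.171) with a 95% interval from -0.03 to 0.27, and -0.01 after siCCNF (adjusted p = 0.951). After siKEAP1/siCCNF it was 0.23 (edgeR adjusted p = 0.0128). That call was lost in 2 of the alternative settings, 1 of them without siCONTROL replicate 3 (0.20).

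Mdm2, the ubiquitin ligase of the feedback loop, rose most after siKEAP1. Mdm2 (ENSMUSG00000020184, chromosome 10 from 117688875 to 117710758) stood at 77.3, 76.4 and 81.6 CPM in siCONTROL cells, 149, 184 and 182 CPM after siKEAP1, 88.2, 103 and 99.2 CPM after siCCNF, and 109, 119 and 99.7 CPM after siKEAP1/siCCNF. Every siKEAP1 library lay above all other libraries, and those of siCCNF and siKEAP1/siCCNF overlapped with each other above siCONTROL. The rise after siKEAP1 was 2.19-fold (log2 fold change 1.13, SE 0.094, edgeR adjusted p = 7.54e-07). After siCCNF it was 1.23-fold (0.30, adjusted p = 0.0168), a call that was lost without siCONTROL replicate 2 (0.29) or siCCNF replicate 2 (0.26) or 3 (0.29). After siKEAP1/siCCNF it was 1.39-fold (0.48, SE 0.093, edgeR adjusted p = 0.00102).

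Ccng1 and Zmat3 were higher in all 3 depletions, and in both the siCCNF mean lay above the siKEAP1 mean. Ccng1 (ENSMUSG00000020326, chromosome 11 from 40748552 to 40755311) stood at 268, 280.1 and 288 CPM in siCONTROL cells, 384, 431 and 423 CPM after siKEAP1, 456, 516 and 506 CPM after siCCNF, and 462, 473 and 374 CPM after siKEAP1/siCCNF. Every depleted library was above every siCONTROL library, and the siKEAP1/siCCNF libraries overlapped with both single depletions. Its log2 fold changes were 0.57 after siKEAP1, 0.82 after siCCNF and 0.65 after both siRNAs.

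Zmat3, which encodes a zinc finger protein that binds RNA, stood at 58.9, 61.9 and 62.3 CPM in siCONTROL cells, 95.1, 106 and 109 CPM after siKEAP1, 123, 124 and 121 CPM after siCCNF, and 127, 125 and 107 CPM after siKEAP1/siCCNF. Again no depleted library overlapped with siCONTROL. The log2 fold changes were 0.76, 1.01 and 0.98, each with an SE of 0.076 (edgeR adjusted p = 4.08e-06, 2.94e-07 and 4.90e-07). Phlda3 was lower after siCCNF (-0.33, edgeR adjusted p = 0.0209) and after siKEAP1/siCCNF (-0.39, adjusted p = 0.0103), and its value after siKEAP1 was -0.07 (adjusted p = 0.657). The siCCNF call of Phlda3 was lost without siCONTROL replicate 1 (-0.18), siCCNF replicate 2 (-0.31) or siCCNF replicate 3 (-0.30), and without siCONTROL replicate 1 the value after both siRNAs was -0.25 (edgeR adjusted p = 0.0206). With the compared groups only, the call after both siRNAs was lost (-0.38, edgeR adjusted p = 0.0607).

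Of the 12 genes of apoptosis, 8 were higher and 0 lower after siKEAP1 (0 also at an unadjusted p under 0.05), 7 higher and 2 lower after siCCNF, and 7 higher and 1 lower after siKEAP1/siCCNF. The shares of all genes were 20.4%, 22.5% and 20.6% higher and 20.2%, 25.5% and 23.6% lower. The counts of lower genes of apoptosis were thus not above these shares. Perp, which encodes a membrane protein of desmosomes, and Trp53inp1, which encodes a nuclear cofactor that promotes p53 activity, rose most after siKEAP1. Perp (ENSMUSG00000019851, chromosome 10 from 18845020 to 18857073) stood at 1.08, 1.57 and 1.25 CPM in siCONTROL cells, 4.64, 5.39 and 4.17 CPM after siKEAP1, 1.85, 2.41 and 2.33 CPM after siCCNF, and 2.98, 2.37 and 3.08 CPM after siKEAP1/siCCNF. The siKEAP1 libraries were the highest, siCONTROL the lowest, and the other groups overlapped between them. The rises were 3.66-fold (log2 fold change 1.87, SE 0.207, edgeR adjusted p = 1.01e-05), 1.70-fold (0.76, adjusted p = 0.00986) and 2.16-fold (1.11, adjusted p = 0.000854).

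Trp53inp1 (ENSMUSG00000028211, chromosome 4 from 11156431 to 11174379) stood at 49.4, 61.0 and 65.9 CPM in siCONTROL cells, 179, 198 and 203 CPM after siKEAP1, 89.6, 104 and 96.6 CPM after siCCNF, and 125, 134 and 85.5 CPM after siKEAP1/siCCNF. All depleted libraries were above siCONTROL and all siKEAP1 libraries above the rest, while siKEAP1/siCCNF replicate 3 lay below every siCCNF library. The rises were 3.29-fold (log2 fold change 1.72, SE 0.150, edgeR adjusted p = 1.24e-06), 1.65-fold (0.72, adjusted p = 0.00131) and 1.95-fold (0.97, adjusted p = 0.000152).

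Pmaip1, which encodes the BH3-only protein NOXA, stood at 4.12, 3.58 and 3.13 CPM in siCONTROL cells, 6.73, 8.02 and 7.89 CPM after siKEAP1, 4.96, 6.80 and 6.17 CPM after siCCNF, and 6.63, 6.75 and 4.83 CPM after siKEAP1/siCCNF. No depleted library overlapped with siCONTROL, and the 3 depleted groups overlapped with one another. Its log2 fold changes were 1.06, 0.72 and 0.75 (SE 0.18 each, edgeR adjusted p = 0.000313, 0.00423 and 0.00365). Bbc3, which encodes PUMA, another BH3-only protein, stood at the threshold after siKEAP1 (0.48, SE 0.18, edgeR adjusted p = 0.0499), but leaving out siCONTROL replicate 2 (0.26) or 3 (0.43), or any 1 library of the depleted groups (0.45 to 0.51), ended this call, and without siCONTROL replicate 1 it was 0.77. In all, the siKEAP1 call of Bbc3 was lost in 12 of the alternative settings. The siCONTROL libraries of Bbc3 spread from 8.90 to 18.0 CPM, with replicate 1 the highest.

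Aen, which encodes a nuclear exonuclease, rose by nearly the same amount in each depletion. Its levels were 38.0, 32.7 and 32.2 CPM in siCONTROL cells, 58.5, 67.8 and 64.6 CPM after siKEAP1, 59.2, 68.5 and 60.9 CPM after siCCNF, and 60.8, 62.5 and 67.4 CPM after siKEAP1/siCCNF. The 3 depleted groups overlapped fully and lay well above siCONTROL, with log2 fold changes of 0.89, 0.87 and 0.89 (SE 0.089 each, edgeR adjusted p = 3.95e-06, 3.96e-06 and 3.99e-06). Between the double depletion and siKEAP1 the 95% interval of the difference in Aen ran from -0.20 to 0.20.

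Among the death receptors, Fas rose most after CCNF depletion. Fas stood at 9.59, 9.98 and 9.15 CPM in siCONTROL cells, 11.8, 11.9 and 12.9 CPM after siKEAP1, 16.7, 20.5 and 18.8 CPM after siCCNF, and 16.9, 19.1 and 23.8 CPM after siKEAP1/siCCNF. The siKEAP1 libraries lay above siCONTROL and below all libraries with siCCNF. On the log2 scale it rose by 0.96 after siCCNF (SE 0.125, edgeR adjusted p = 3.51e-05) and 1.06 after both siRNAs (adjusted p = 1.84e-05). The value after siKEAP1 was 0.35 (edgeR adjusted p = 0.0455). It lost its call in 10 of the alternative settings, among them those without any 1 siCONTROL or siKEAP1 library (0.31 to 0.37).

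Tnfrsf10b and Eda2r, receptors of TRAIL and of ectodysplasin A2, were instead higher after siKEAP1 and lower after siCCNF. Tnfrsf10b stood at 31.2, 32.4 and 33.5 CPM in siCONTROL cells, 54.2, 60.3 and 57.5 CPM after siKEAP1, 23.6, 26.9 and 27.2 CPM after siCCNF, and 28.3, 30.8 and 28.3 CPM after siKEAP1/siCCNF. The 4 groups did not overlap, with siKEAP1 the highest and siCCNF the lowest. On the log2 scale it differed by 0.82 after siKEAP1 (edgeR adjusted p = 2.03e-06), -0.32 after siCCNF (adjusted p = 0.00366) and -0.15 after both (adjusted p = 0.130).

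Eda2r (ENSMUSG00000034457, chromosome X from 97333840 to 97377216) stood at 29.9, 33.9 and 37.5 CPM in siCONTROL cells, 66.8, 81.9 and 76.4 CPM after siKEAP1, 17.5, 20.1 and 19.4 CPM after siCCNF, and 21.6, 25.2 and 16.9 CPM after siKEAP1/siCCNF. All libraries with siCCNF lay below siCONTROL, and all of siKEAP1 above it. The log2 fold change was 1.15 after siKEAP1 (SE 0.132, edgeR adjusted p = 1.39e-05), -0.83 after siCCNF (adjusted p = 0.000214) and -0.66 after siKEAP1/siCCNF (adjusted p = 0.00131).

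Pidd1, which encodes a scaffold of caspase activation, was higher only in the groups with siCCNF among these comparisons. Its levels were 11.6, 13.0 and 13.1 CPM in siCONTROL cells, 11.8, 11.8 and 11.7 CPM after siKEAP1, 19.2, 22.6 and 22 CPM after siCCNF, and 18.6, 21.3 and 21.8 CPM after siKEAP1/siCCNF. The siKEAP1 and siCONTROL libraries overlapped below all others, and the log2 fold changes were -0.09 (edgeR adjusted p = 0.491), 0.76 (adjusted p = 2.67e-05) and 0.71 (adjusted p = 5.52e-05). Ei24, a membrane protein of the endoplasmic reticulum, had values of 0.11, 0.32 and 0.30, of which those after siCCNF (edgeR adjusted p = 0.00185) and after both (adjusted p = 0.00331) passed the test.

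Bax and Apaf1, the pore-forming protein of mitochondrial apoptosis and the core of the apoptosome, did not pass the test in any depletion. The log2 fold changes of Bax were 0.13, 0.05 and 0.13 and those of Apaf1 0.23, -0.09 and -0.20. For Bax 12.2% of the exon bases are shared with Gm45808 on the same strand. Without siCONTROL replicate 1, the highest library for Bax at 114 CPM against 79.7 and 85.9 CPM in the other siCONTROL libraries, Bax passed as higher after siKEAP1 (0.29, edgeR adjusted p = 0.0135), siCCNF (0.22, adjusted p = 0.0473) and both siRNAs (0.30, adjusted p = 0.0116).

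**Figure D2:**
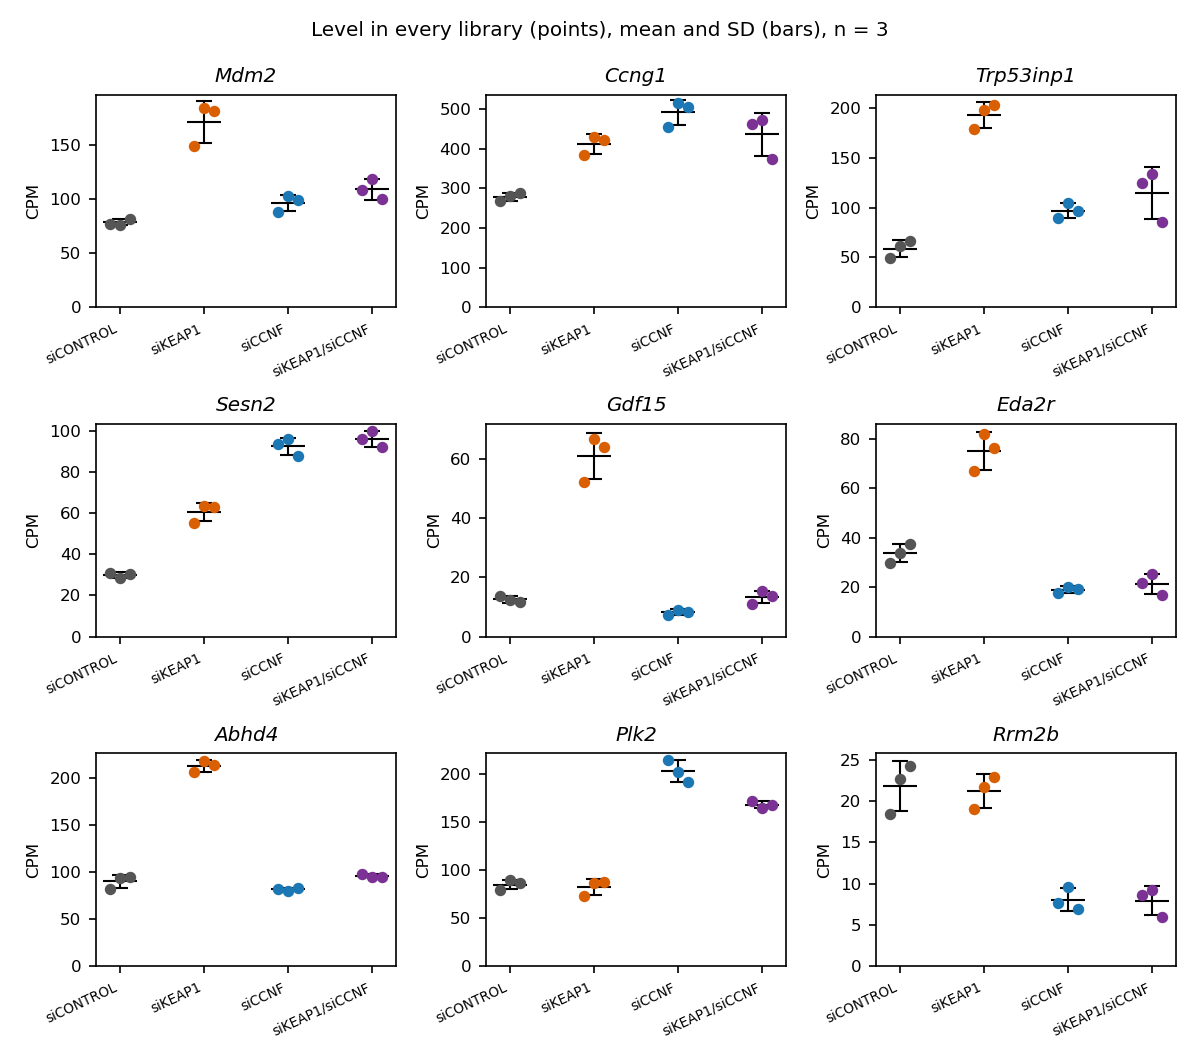
Level of 9 genes in CPM (y axis, from 0) in each library of the 4 siRNA groups (points), with the mean and SD of 3 libraries (bars). The siKEAP1 libraries lie highest for Mdm2, Trp53inp1, Gdf15, Eda2r and Abhd4, those with siCCNF highest for Sesn2 and Plk2, and those with siCCNF lowest for Rrm2b (5.89 to 9.56 CPM against 18.5 to 24.3 CPM in siCONTROL).

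Of the 6 genes of arrest and growth control, 5 were higher and 0 lower after siKEAP1, 2 were higher and 3 lower after siCCNF, and 2 were higher and 0 lower after siKEAP1/siCCNF. Among all genes 20.4%, 22.5% and 20.6% were higher and 20.2%, 25.5% and 23.6% lower, and 6 genes are too few to set against these shares closely. Gdf15, which encodes a secreted stress cytokine of the TGF-beta family, showed the largest rise of all 32 genes. Gdf15 (ENSMUSG00000038508, chromosome 8 from 70629393 to 70632456) stood at 13.8, 12.2 and 11.6 CPM in siCONTROL cells, 52.2, 66.8 and 63.8 CPM after siKEAP1, 7.30, 9.10 and 8.27 CPM after siCCNF, and 11.1, 15.2 and 13.6 CPM after siKEAP1/siCCNF. The siKEAP1 libraries were far above all others, the siCCNF libraries below siCONTROL, and those with both siRNAs overlapped with siCONTROL. The rise after siKEAP1 was 4.86-fold (log2 fold change 2.28, SE 0.134, edgeR adjusted p = 3.63e-08). After siCCNF the log2 fold change was -0.61 (adjusted p = 0.00265) and after both 0.09 (adjusted p = 0.629), with a 95% interval from -0.23 to 0.40.

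The polo-like kinases Plk2 and Plk3, both stress-responsive, went opposite ways after siCCNF. Plk2 (ENSMUSG00000021701, chromosome 13 from 110395046 to 110400844) stood at 79.3, 89.3 and 86.5 CPM in siCONTROL cells, 72.8, 87.1 and 88.0 CPM after siKEAP1, 215, 203 and 192 CPM after siCCNF, and 172, 165 and 168 CPM after siKEAP1/siCCNF. The siKEAP1 libraries overlapped with siCONTROL, and the siCCNF libraries lay above those with both siRNAs. Its log2 fold changes were -0.04 (edgeR adjusted p = 0.724), 1.26 (SE 0.080, adjusted p = 7.39e-08) and 0.99 (adjusted p = 7.03e-07).

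Plk3 stood at 17.2, 15.4 and 16.1 CPM in siCONTROL cells, 32, 31.8 and 29.9 CPM after siKEAP1, 8.92, 11.9 and 12.1 CPM after siCCNF, and 12.2, 12.8 and 15.4 CPM after siKEAP1/siCCNF. It was highest in the siKEAP1 libraries and lowest in those of siCCNF, and the siKEAP1/siCCNF libraries lay between them and siCONTROL, the highest just below the lowest siCONTROL library. Its log2 fold changes were 0.94 (edgeR adjusted p = 3.52e-05), -0.57 (adjusted p = 0.00185) and -0.28 (adjusted p = 0.0860). Plk3 shares 3.32% of its exon bases with Tctex1d4 on the opposite strand.

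Gadd45a, a stress sensor that acts on growth arrest and repair, stood at 18.9, 11.7 and 10.2 CPM in siCONTROL cells, 21.8, 20.2 and 20.5 CPM after siKEAP1, 11, 12.5 and 11.8 CPM after siCCNF, and 12.3, 10.5 and 14.3 CPM after siKEAP1/siCCNF. The siKEAP1 libraries lay above all others, and siCONTROL replicate 1 lay above every library with siCCNF. The rise after siKEAP1 (log2 fold change 0.61, edgeR adjusted p = 0.0175) was lost without siCONTROL replicate 2 (0.51) or 3 (0.43) or siKEAP1 replicate 1 (0.57), and without siCONTROL replicate 1 it was 0.92. Of its exon bases 19.1% are shared with E230016M11Rik on the opposite strand, and whether counting used strand is not given in the sources used here.

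Btg2, an antiproliferative factor, was higher in all 3 depletions with log2 fold changes of 0.26, 0.37 and 0.34 (edgeR adjusted p = 0.0248, 0.00226 and 0.00471). The first of these calls was lost in 6 of the alternative settings. Among them were those without siCONTROL replicate 2 (0.18) or 3 (0.22), or siKEAP1 replicate 1 (0.27) or 3 (0.21). Psrc1, a microtubule protein of the mitotic spindle, was higher after siKEAP1 (0.45, edgeR adjusted p = 0.00157) and lower after siCCNF (-0.43, adjusted p = 0.00179), with -0.08 after both (adjusted p = 0.502). Cdkn1a, the p53 target that encodes the CDK inhibitor p21 and is not among the 32, stood at 243, 204 and 202 CPM in siCONTROL cells, 397, 409.8 and 409 CPM after siKEAP1, 176, 196 and 194 CPM after siCCNF, and 198, 214 and 225 CPM after siKEAP1/siCCNF. Its siKEAP1 libraries alone stood clear of siCONTROL on the higher side (log2 fold change 0.91, edgeR adjusted p = 1.40e-06), and the value after siCCNF was -0.20 (adjusted p = 0.0537).

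The 4 genes of stress and metabolism showed 4 different patterns. Sesn2, a sestrin that restrains mTORC1 signaling, rose in every depletion and most with siCCNF. Sesn2 (ENSMUSG00000028893, chromosome 4 from 132492032 to 132510501) stood at 31.1, 28.4 and 30.4 CPM in siCONTROL cells, 55.4, 63.4 and 62.8 CPM after siKEAP1, 93.5, 96 and 87.7 CPM after siCCNF, and 95.8, 99.8 and 92.0 CPM after siKEAP1/siCCNF. The siKEAP1 libraries lay between siCONTROL and the others without overlap. The rises were 2.02-fold (log2 fold change 1.01, SE 0.074, edgeR adjusted p = 2.23e-07), 3.08-fold (1.62, adjusted p = 6.50e-09) and 3.20-fold (1.68, adjusted p = 5.09e-09). Its paralog Sesn1 was instead lower after siKEAP1 (-0.58, edgeR adjusted p = 0.000578), with -0.06 after siCCNF and -0.23 after both, which did not pass.

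Abhd4, a lipid hydrolase, passed the test after siKEAP1 and in neither other depletion. Abhd4 (ENSMUSG00000040997, chromosome 14 from 54254188 to 54270637) stood at 81.8, 93.4 and 95.1 CPM in siCONTROL cells, 206, 219 and 214 CPM after siKEAP1, 82.1, 79.6 and 83.4 CPM after siCCNF, and 98.1, 95.2 and 95 CPM after siKEAP1/siCCNF. All siKEAP1 libraries lay far above the rest, and the other groups overlapped with siCONTROL. The rise was 2.36-fold (log2 fold change 1.24, SE 0.065, edgeR adjusted p = 1.30e-08), and the values after siCCNF and after both were -0.14 (adjusted p = 0.0893) and 0.09 (adjusted p = 0.264). Without siCONTROL replicate 1 the siCCNF value passed as lower (-0.21, edgeR adjusted p = 0.00694).

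Dram1, a lysosomal membrane protein of autophagy, was lower after siKEAP1 and higher in both groups with siCCNF. Dram1 stood at 28.5, 29.6 and 29.5 CPM in siCONTROL cells, 23.4, 22.9 and 22.7 CPM after siKEAP1, 52.8, 50.9 and 52.4 CPM after siCCNF, and 47.1, 45.8 and 45.5 CPM after siKEAP1/siCCNF. No group overlapped with another. Its log2 fold changes were -0.34 (SE 0.059, edgeR adjusted p = 0.000401), 0.83 (adjusted p = 1.31e-07) and 0.66 (adjusted p = 1.25e-06).

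Of the 5 genes of DNA repair, 3 were higher and 0 lower after siKEAP1, and 3 were higher and 2 lower both after siCCNF and after siKEAP1/siCCNF. The shares among all genes were 20.4%, 22.5% and 20.6% higher and 20.2%, 25.5% and 23.6% lower, and 5 genes are too few to set against them closely. Rrm2b, the p53-inducible subunit of ribonucleotide reductase that supplies nucleotides for repair, fell most of all 32 genes. Rrm2b (ENSMUSG00000022292, chromosome 15 from 37923952 to 37961318) stood at 18.5, 22.7 and 24.3 CPM in siCONTROL cells, 19.0, 21.8 and 22.9 CPM after siKEAP1, 7.67, 9.56 and 6.90 CPM after siCCNF, and 8.65, 9.18 and 5.89 CPM after siKEAP1/siCCNF. The siKEAP1 libraries overlapped with siCONTROL and every library with siCCNF lay below both. The log2 fold change was -1.45 after siCCNF (SE 0.169, edgeR adjusted p = 1.33e-05) and after siKEAP1/siCCNF (SE 0.171, adjusted p = 1.62e-05), and -0.04 after siKEAP1 (adjusted p = 0.875). Rrm2b shares 8.04% of its exon bases with Gm49085 on the opposite strand.

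Ddb2, which recognizes ultraviolet damage, stood at 3.72, 3.26 and 3.71 CPM in siCONTROL cells, 4.32, 5.27 and 3.99 CPM after siKEAP1, 1.85, 2.64 and 2.25 CPM after siCCNF, and 1.87, 2.59 and 2.72 CPM after siKEAP1/siCCNF. The libraries with siCCNF lay below siCONTROL and those of siKEAP1 above it. The log2 fold change was -0.67 after siCCNF (edgeR adjusted p = 0.0122), -0.57 after both (adjusted p = 0.0305) and 0.35 after siKEAP1 (adjusted p = 0.171). The call after siCCNF was lost without siCCNF replicate 1 (-0.55). That after both was lost in 4 of the alternative settings. Among them were those without siCONTROL replicate 1 (-0.55) or 3 (-0.55) or siKEAP1/siCCNF replicate 1 (-0.43). Of the exon bases of Ddb2 23.8% are shared with Acp2 on the opposite strand.

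Xpc, Ercc5 and Polk rose in all 3 depletions. Xpc, the damage sensor of nucleotide excision repair, stood at 15.5, 17.1 and 16.7 CPM in siCONTROL cells, 25, 26.7 and 24.6 CPM after siKEAP1, 25.4, 24.7 and 21.3 CPM after siCCNF, and 26.8, 23.8 and 24.5 CPM after siKEAP1/siCCNF. Every depleted library was above siCONTROL and the depleted groups overlapped, with log2 fold changes of 0.63, 0.54 and 0.61 (edgeR adjusted p = 8.39e-05, 0.000247 and 0.000101). Polk, a translesion polymerase, stood at 23.4, 25.4 and 28.6 CPM in siCONTROL cells, 40.5, 48.4 and 45.9 CPM after siKEAP1, 34.4, 40.7 and 40.0 CPM after siCCNF, and 39.2, 41.9 and 29.1 CPM after siKEAP1/siCCNF. Its depleted libraries were all above siCONTROL, siKEAP1/siCCNF replicate 3 by the least, with log2 fold changes of 0.80, 0.57 and 0.51 (edgeR adjusted p = 0.000274, 0.00269 and 0.00614). Ercc5, an endonuclease of excision repair, had log2 fold changes of 0.41, 0.24 and 0.26 (edgeR adjusted p = 0.000292, 0.00979 and 0.00645).

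**Figure D3:**
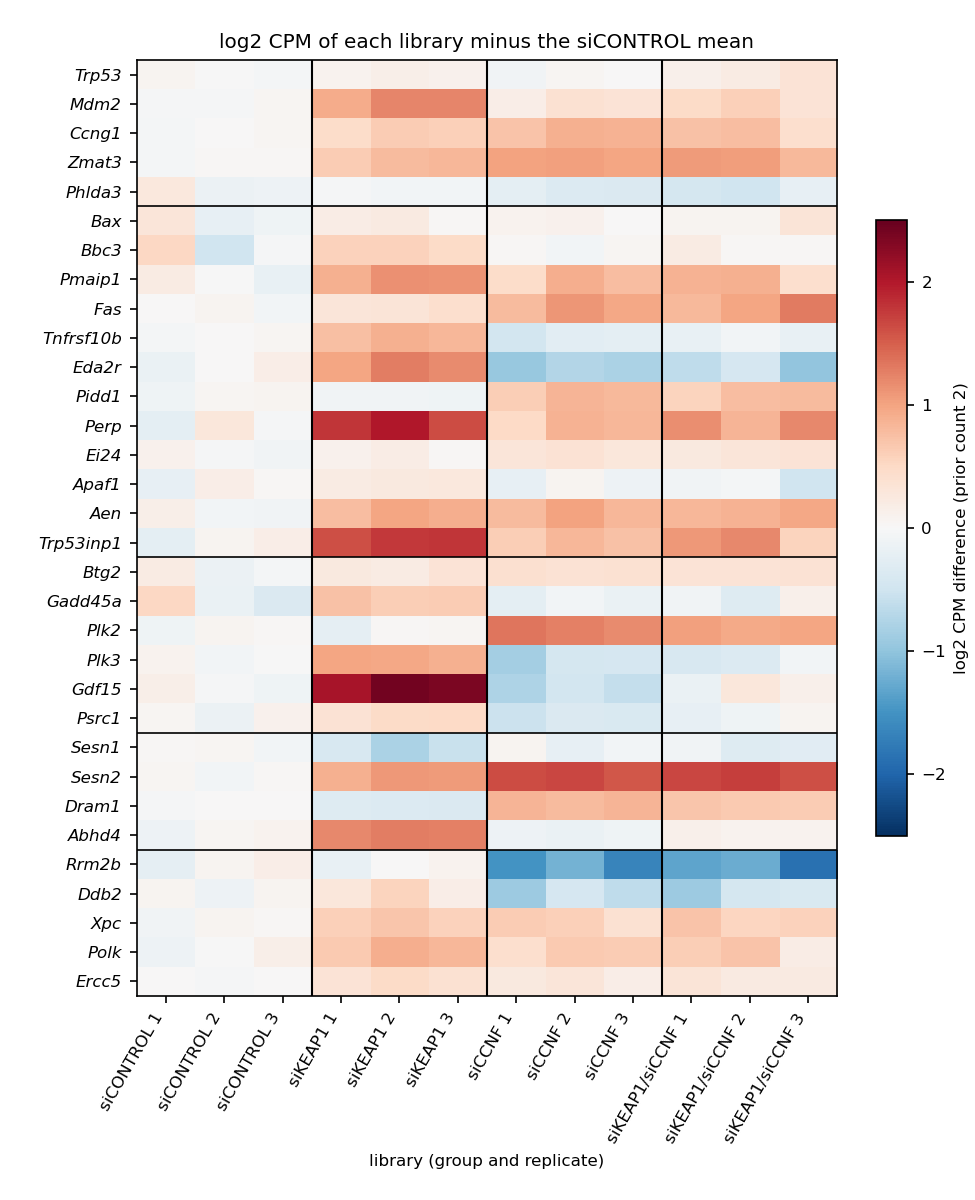
Log2 CPM of each of the 12 libraries (columns) minus the mean of the siCONTROL libraries (prior count 2), for the 32 genes (rows, ordered by role), red where higher and blue where lower. The siKEAP1 columns are red for Mdm2, Perp, Trp53inp1, Gdf15 and Abhd4, and the columns with siCCNF are blue for Eda2r, Rrm2b and Ddb2 and red for Plk2, Sesn2 and Dram1.

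Cells depleted of both factors were then compared with either single depletion, to ask what the second siRNA changed. Against siKEAP1, 8 of the 32 genes were higher and 15 lower in the double depletion, where 24.1% of all genes were higher and 26.9% lower. The share of higher genes was close to that of all genes, and the median log2 fold change was -0.30. Lower were Gdf15 (-2.19), Eda2r (-1.82) and Plk3 (-1.22 on the log2 scale; edgeR adjusted p = 3.25e-08, 1.87e-07 and 2.62e-06), together with Abhd4 (-1.15), Rrm2b (-1.42), Tnfrsf10b (-0.98), Perp (-0.76), Trp53inp1 (-0.75) and Mdm2 (-0.65). Plk2 (1.03), Dram1 (1.00), Pidd1 (0.81), Fas (0.71) and Sesn2 (0.66) were among the genes that were higher. The calls of Zmat3 (0.21), Phlda3 (-0.32), Bbc3 (-0.45), Ei24 (0.19) and Sesn1 (0.35) in this comparison were lost when single libraries were left out. Keap1 mRNA was 1.91-fold higher in the double depletion than after siKEAP1, and the part of this difference in the results was not tested. Without siCONTROL replicate 1 and siKEAP1/siCCNF replicate 3, 9 were higher and 15 lower.

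Against siCCNF, the double depletion changed few targets. Of the 32 genes 2 were higher, Gdf15 and Psrc1, and 0 were lower, where 3.00% of all genes were higher and 2.19% lower. At an unadjusted p under 0.05 by edgeR 6 were higher and 2 lower, the latter Plk2 (-0.27) and Dram1 (-0.17). Gdf15 was 1.63-fold higher (log2 fold change 0.70, SE 0.136, edgeR adjusted p = 0.00989), a call that was lost without siCCNF replicate 1 (0.62) or siKEAP1/siCCNF replicate 2 (0.58). Psrc1 was 1.27-fold higher (0.35, edgeR adjusted p = 0.0450), and lost its call in 9 of the 12 settings that left out 1 library (0.26 to 0.37). These counts depended on the setting: with siCONTROL replicate 1 and siKEAP1/siCCNF replicate 3 left out, 6 genes were higher and 3 lower, and by DESeq2 4 were higher and 1 lower. The 95% intervals of the difference reached from -0.45 to 1.01 over all 32 genes.

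The effect of siKEAP1 on the targets differed between control and CCNF-depleted cells. The interaction takes the effect of siKEAP1 with CCNF depleted and subtracts from it the effect in control cells. It was below 0 for 16 of the 32 genes and above 0 for 0 at an adjusted p under 0.05, where 10.6% of all genes were above and 10.5% below. Its median over the 32 genes was -0.46, and over all genes 0.011. At an unadjusted p under 0.05 1 gene, Sesn1, was above 0 (0.41, edgeR adjusted p = 0.0619), and by DESeq2 it passed the adjusted threshold. Without siCONTROL replicate 1, Bbc3 (-0.69), Gadd45a (-0.85) and Btg2 (-0.40) also passed below 0. Without this library and siKEAP1/siCCNF replicate 3, 22 genes were below 0 and 1 above.

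The 3 genes with the largest interaction were those that siKEAP1 raised most in control cells, an effect that enters the interaction itself. For Gdf15 the effect of siKEAP1 was 2.28 on the log2 scale in control cells and 0.70 in CCNF-depleted cells (interaction -1.58, SE 0.189, edgeR adjusted p = 8.99e-05). For Perp it was 1.87 and 0.35 (-1.52, SE 0.282, adjusted p = 0.00194) and for Trp53inp1 1.72 and 0.25 (-1.47, SE 0.207, adjusted p = 0.000290). For Mdm2 it was 1.13 and 0.17 (-0.96, edgeR adjusted p = 0.000241), and for Abhd4 1.24 and 0.23 (-1.01, adjusted p = 1.28e-05). Pmaip1 (-1.03), Eda2r (-0.98), Sesn2 (-0.96), Aen (-0.87), Polk (-0.86), Zmat3 (-0.79), Ccng1 (-0.74), Tnfrsf10b (-0.65), Plk3 (-0.65), Xpc (-0.56) and Ercc5 (-0.38) also passed the test.

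By role, the interaction passed the test below 0 for 3 of 5 genes of p53 and its feedback, 6 of 12 of apoptosis, 2 of 6 of arrest and growth control, 2 of 4 of stress and metabolism and 3 of 5 of DNA repair. Of all genes tested 10.5% passed below 0, and counts over so few genes are imprecise. The interaction was 0.03 for Rrm2b (95% interval from -0.52 to 0.58), 0.05 for Pidd1 (-0.27 to 0.36) and -0.23 for Plk2 (-0.49 to 0.03), genes that siCCNF moved in the same direction in control and KEAP1-depleted cells. Cdkn1a had an interaction of -0.73 (edgeR adjusted p = 0.000571). Keap1 mRNA itself was less depleted in the double depletion, with 27.5% of control against 14.4%, and its interaction was 0.98 (edgeR adjusted p = 6.99e-05).

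**Figure D4:**
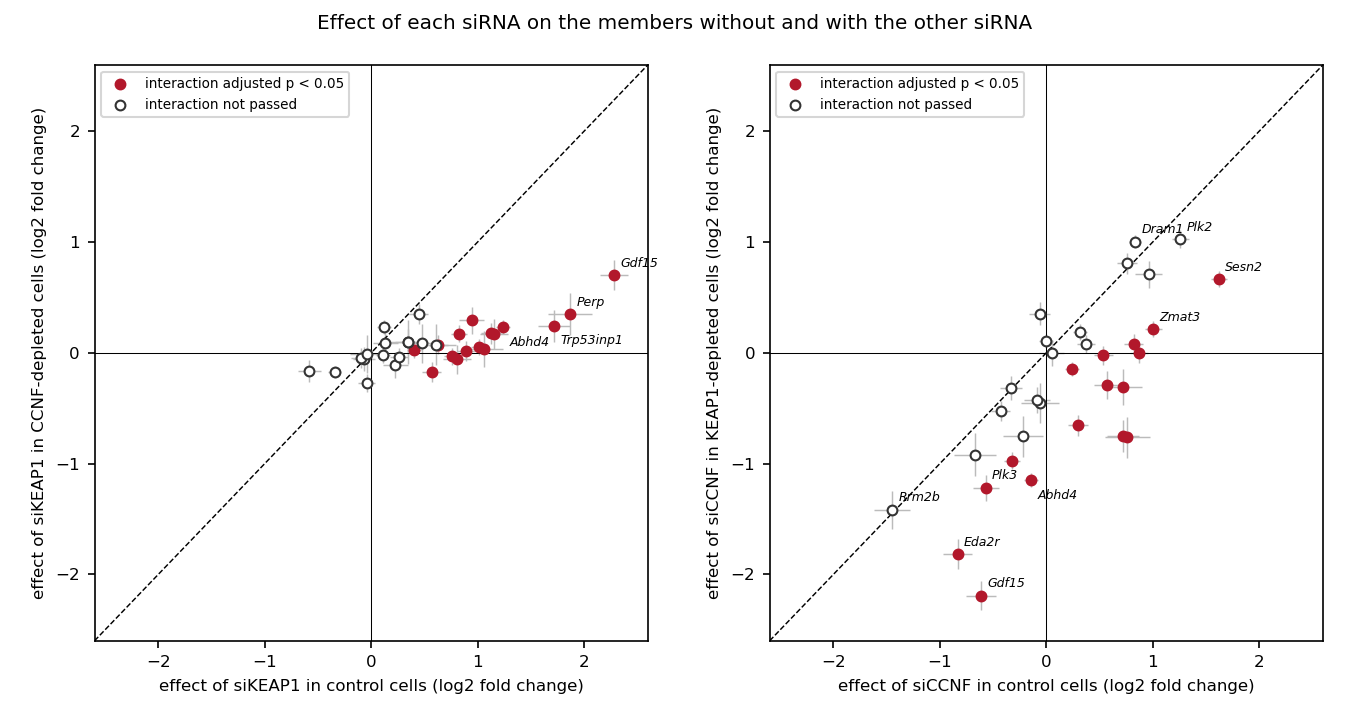
Log2 fold changes of the 32 genes for siKEAP1 in control cells (x axis) and in CCNF-depleted cells (y axis) on the left, and for siCCNF without and with depletion of KEAP1 on the right. Bars are standard errors, the dashed line marks equal effects, and filled points passed the test of the interaction. On the left the 16 filled points lie below the dashed line, Gdf15 at 2.28 and 0.70, and on the right Rrm2b lies near the line at -1.45 and -1.42.

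Other genes of the pathway were taken from lists that hold none of the 32. Of 18 further p53 targets, Cdkn1a among them, 17 were tested, and 12 were higher and 2 lower after siKEAP1, 6 higher and 5 lower after siCCNF, and 10 higher and 3 lower after siKEAP1/siCCNF. Shares of all genes were 20.4%, 22.5% and 20.6% higher and 20.2%, 25.5% and 23.6% lower, and the counts of lower targets were near or under these. The median log2 fold changes of the 17 genes were 0.65, 0.13 and 0.41. Over 2-fold after siKEAP1 were Cyfip2 (1.70), a regulator of actin, Ephx1 (1.39), a detoxifying epoxide hydrolase, Sfn (1.45), and the metalloreductase gene Steap3 (1.17). Cyfip2 and Sfn were low, with means of 0.919 and 0.621 CPM in siCONTROL cells and 2.97 and 1.73 CPM after siKEAP1. Ephx1 and Steap3 had means of 228 and 52.4 CPM in siCONTROL cells. Steap3 was lower after siCCNF (-1.02), as was Igfbp3 (-1.06), which encodes an IGF-binding protein. After both siRNAs Igfbp3 was at -1.35. In the interaction 1 of the 17 passed the test above 0 and 8 below, with a median of -0.43, where 10.6% of all genes were above and 10.5% below.

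Of 20 genes that regulate p53, 18 were tested, and 3 were higher and 2 lower after siKEAP1, 5 higher and 3 lower after siCCNF, and 4 higher and 1 lower after siKEAP1/siCCNF. Of all genes 20.4%, 22.5% and 20.6% were higher and 20.2%, 25.5% and 23.6% lower in these comparisons. Trp63, a relative of p53, was lower after siKEAP1 (-1.41, edgeR adjusted p = 0.00513) at levels of 1.44 ± 0.486 CPM in siCONTROL cells and 0.542 ± 0.225 CPM after siKEAP1 (SD, n = 3). Prkdc, which encodes the catalytic subunit of a DNA damage kinase, had an interaction of -1.04 (edgeR adjusted p = 0.0141). Cdkn2a, whose product ARF restrains MDM2, had 0 counts in all 12 libraries, which allows up to 3 counts in each. Of 15 ATF4 targets, all tested, 2 were higher and 3 lower after siKEAP1, 2 higher and 3 lower after siCCNF, and 4 higher and 3 lower after siKEAP1/siCCNF, to be read against the same shares of all genes. The cystine transporter gene Slc7a11, which is also a known NRF2 target, was the ATF4 target over 2-fold after siKEAP1 (2.63, edgeR adjusted p = 4.66e-08).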

How the data were processed

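RNA was sequenced in 12 libraries, and library preparation, sequencing and primary analysis were done by Novogene. The authors deposited, for each of 54532 genes, raw read counts and FPKM values per library, and also log2 fold changes, p-values and adjusted p-values of their own comparisons, which were not used here. The authors' normalized group means in these comparisons, a score of unstated scaling as deposited, were not used either. The submitters' processing notes name HISAT2, version not given, and GRCm39, whereas 53548 of 54495 genes found in GENCODE release 21 have the GRCm38 position. The counting tool and its use of strand are not given in the sources used here.

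Deposited counts were tested with edgeR 4.0.16 in R 4.3.3 (filterByExpr, TMM, quasi-likelihood F test, 4 group means, all 12 libraries, 8 residual degrees of freedom). P-values were adjusted by Benjamini-Hochberg over 15122 genes in each of 6 comparisons, and the standard error is the log2 fold change over the root of F. The 95% intervals are this error times a Student t quantile with 8 degrees of freedom, unadjusted. The edgeR test uses more degrees of freedom, so the intervals are somewhat wider than its p-values imply. Total counts were 18464209 to 37743198 per library, and floors and counting error cover sampling of reads only. The 32 genes and the other lists were chosen with earlier results of these data known. Values in every library are given for Trp53, Mdm2 and genes past 1.5-fold at an adjusted p under 0.05 in a depletion or the interaction. Outside the 32, Cdkn1a, Keap1, Ccnf and the p53 regulators and further targets past 2-fold are named, except 1 that is not reported here. Cdkn2a, Slc7a11, Tyrobp, Cd68, Csf1r, Tek, Cdh5, Met and single siCONTROL values of Bax and Bbc3 were named after their values were seen. The main fit did not pair samples by replicate number, and 4 of 18 same-numbered pairs had deviations correlated above 0.1. Among siCONTROL, siKEAP1 and siCCNF every same-numbered pair was positive (r from 0.00352 to 0.204). Pairs with siKEAP1/siCCNF did not follow this, and its replicate 3 went with siCONTROL replicate 1 (r = 0.39). Whether replicate numbers mark a shared batch was not tested. No libraries within a group agreed within sampling noise. Alternatives were DESeq2 1.42.0, library totals without TMM, no filter, at least 10 counts in every library, a replicate block, limma 3.58.1 on log2(FPKM + 1), removal of the gene length trend, only the compared groups, and each library left out. Leaving out siCONTROL replicate 1 with siKEAP1/siCCNF replicate 3 was chosen after seeing the data. The code was tested on simulated data.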

Additional observations from a re-analysis of the deposited data

Results flagged for a closer look

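For 16 of the 32 genes the effect of siKEAP1 differed between CCNF-depleted and control cells by the test of the interaction (edgeR, adjusted p under 0.05), and each of the 16 was below 0. On the log2 scale the interaction was -0.96 for Mdm2, -0.74 for Ccng1 and -0.79 for Zmat3 among the feedback genes. Among the genes of apoptosis it was -1.03 for Pmaip1, -0.65 for Tnfrsf10b, -0.98 for Eda2r, -1.52 for Perp, -0.87 for Aen and -1.47 for Trp53inp1. For Plk3 it was -0.65 and for Gdf15 -1.58. Sesn2 had -0.96 and Abhd4 -1.01. The repair genes Xpc, Polk and Ercc5 had -0.56, -0.86 and -0.38, and the call of Ercc5 was lost in 1 of the alternative settings. Keap1 mRNA stood at 27.5% of control in the double depletion and at 14.4% after siKEAP1, and the part of this difference was not tested.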

How the results depend on the processing

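Over 4000 values of single genes under the alternatives, 3849 kept their side of the threshold, 99 of them with a change of sign between values that passed in neither setting, 87 lost a call, 63 gained one and 1 reversed. The reversal was the interaction of Phlda3, -0.23 without siCONTROL replicate 1 and siKEAP1/siCCNF replicate 3 (edgeR adjusted p = 0.0113) against 0.01, and the cause was not tested. Against siCCNF, 4 genes were higher in the double depletion by DESeq2, on library totals without TMM and with at least 10 counts in every library, 1 with the compared groups only, 6 without the 2 libraries, and 0 to 4 with each library left out, while 1 was lower by DESeq2 and with the length trend removed, 3 without the 2 libraries and 0 to 2 with each library left out. In the interaction 1 gene was above 0 by DESeq2, without TMM, without a filter and without the 2 libraries, and 0 to 1 with each library left out. With the replicate block, 1 gene was above 0 in the interaction (Sesn1, 0.42, edgeR adjusted p = 0.0225), and Sesn1 was lower after siKEAP1/siCCNF (-0.23), so that 5 genes were lower there. With the compared groups only, 2 genes were lower after siKEAP1/siCCNF. With each library left out, 17 to 21 genes were higher after siKEAP1, 16 to 18 after siCCNF and 17 to 19 after both, and 16 to 19 were below 0 in the interaction. Over the other settings 15 to 22 were below 0 in the interaction. Other scalings moved the median of all genes by less than 0.1. Depth limits Perp and Ddb2 most, with as few as 24 and 47 counts in a library.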

Other observations

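The effects of siKEAP1 in control and in CCNF-depleted cells share no library. Across the 32 genes they had a Pearson r of 0.744, and across all 15122 genes 0.496. For the effects of siCCNF in control and in KEAP1-depleted cells the values were 0.762 and 0.569. These are descriptions across genes, which are not independent replicates, and the points share the library depths of their group.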
